A study of Mus musculus with 12 samples.

Results

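The cholesterol synthesis genes analysed here were 8 of the 35976 genes listed in the count files, chosen by symbol: the enzymes *Hmgcs1*, *Idi1*, *Fdps*, *Fdft1*, *Sqle* and *Lss*, the transcription factor gene *Srebf2* and the regulator *Insig1*. All 8 passed the filter on low counts, which 18853 genes passed, with 1136 to 28159 counts per library. RNA was measured in scars of male mice aged 8 to 12 weeks, 3 mice in each of 4 groups. The *Tem1*WT/WT mice (WT mice) carry the intact gene, and in the *Tem1*lacZ/lacZ mice (lacZ mice), kept on the C57BL/6J background, lacZ stands in place of the only exon of *Tem1* in all cells of the body. Every mouse received a split wound in the back skin and, on day 6, a device across it. In the traction groups the device was lengthened by 1 mm a day to 8 mm in all, and in the sham groups it stayed as placed. RNA came from one part of each scar after its margins were cut away, so each library is a mixture of the cells of that piece.

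Cells make cholesterol from acetyl-CoA through mevalonate, isoprenoids, squalene and lanosterol. The genes of this pathway are known to be switched on together by the sterol regulatory element-binding protein SREBP2, which *Srebf2* encodes, when the endoplasmic reticulum is low in sterols. When sterols are plentiful, the Insig proteins hold the precursor of SREBP2 in that membrane, and *Insig1* is itself a target of the factor. In skin, keratinocytes and the sebocytes of the sebaceous glands are known as strong producers of sterols and other lipids.

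Library totals were between 41536788 and 64644293 counts. *Tem1*, listed under its symbol *Cd248*, followed the genotype labels, with 3883 to 16413 counts in the libraries of WT mice and 0 to 13 in those of lacZ mice. Marker genes of keratinocytes and fibroblasts, 8 each, had counts in every group. Replicate 1 of the WT traction group stood apart by its neutrophil markers, whose summed level was 7057 CPM (each library's counts divided by its TMM-adjusted total), against 116 to 666 CPM in the other 11 libraries. Replicate 1 of the lacZ traction group stood apart by its keratinocyte markers, at 43526 CPM against 11834 to 21914 CPM in the others. In the sham groups, replicate 1 of WT mice stood apart by its skeletal muscle markers (13782 CPM against 337 to 3827 CPM in the others). Replicate 1 of the lacZ sham group did so by its adipocyte markers (12257 CPM against 327 to 6007 CPM in the others).

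*Insig1* (Entrez 231070, GRCm38 chr5:28071363-28078662, plus strand) fell with traction in WT mice, the only one of the 8 genes past the threshold there. The enzymes had lower mean levels with traction in both genotypes, but none of them passed, and *Srebf2* had a higher mean in both. No gene of the 8 passed between the genotypes or for the interaction of genotype and traction. The threshold was an adjusted p under 0.05 in edgeR's quasi-likelihood test, adjusted by the Benjamini-Hochberg method over all 18853 genes.

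The promoters were searched for elements that genes of this pathway are known to share. RefSeq promoters of GRCm38.p6 were matched for 5 of the 8 genes, *Hmgcs1*, *Idi1*, *Lss*, *Srebf2* and *Insig1*, and not for *Sqle*, *Fdps* or *Fdft1*. The 250 bases before the RefSeq start of each gene were searched on both strands for TCACNCCA, a form of the sterol regulatory element bound by SREBP, for CCAAT, the core bound by NF-Y, for GGGCGG, the box bound by Sp1, and for the E-box CACGTG. The RefSeq start differs from the GENCODE start used for the gene positions given here: it lies 28 bases before it in *Hmgcs1*, and 17, 49, 88 and 105 bases inside the GENCODE gene in *Lss*, *Insig1*, *Srebf2* and *Idi1*. The part of the window before both starts is printed for *Hmgcs1* (chr13:119690101-119690350), *Insig1* (chr5:28071162-28071362) and *Srebf2* (chr15:82147019-82147180), all on the plus strand, because these are the enzyme with the highest level, the gene past the threshold and the factor whose gene ran against the others. Capitals mark the matches on either strand, so that ATTGG is CCAAT and CCGCCC is GGGCGG read on the other strand.
Hmgcs1: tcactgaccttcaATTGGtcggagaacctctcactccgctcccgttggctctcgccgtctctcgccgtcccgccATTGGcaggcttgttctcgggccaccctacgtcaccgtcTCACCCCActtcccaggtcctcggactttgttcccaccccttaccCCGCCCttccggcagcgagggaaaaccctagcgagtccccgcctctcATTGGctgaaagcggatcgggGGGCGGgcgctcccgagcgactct
Insig1: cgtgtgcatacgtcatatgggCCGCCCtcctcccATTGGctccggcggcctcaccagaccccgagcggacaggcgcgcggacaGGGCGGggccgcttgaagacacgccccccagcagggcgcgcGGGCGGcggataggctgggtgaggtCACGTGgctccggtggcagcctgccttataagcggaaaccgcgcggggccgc
Srebf2: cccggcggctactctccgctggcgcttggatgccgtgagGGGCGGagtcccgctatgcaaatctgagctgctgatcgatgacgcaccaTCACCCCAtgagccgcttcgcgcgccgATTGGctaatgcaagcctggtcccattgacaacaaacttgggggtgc
The sterol element was matched once in *Hmgcs1*, from position −137 to −130 counted from the RefSeq start (−165 to −158 from the GENCODE start), and once in *Srebf2*, from −162 to −155 (−74 to −67), so in 2 of 5 windows. It was matched in 3.67% of the 32851 promoters of this length. CCAAT and GGGCGG were matched in all 5 windows, against 33.8% and 32.7% of all promoters, but the 3 matches in *Idi1* and 3 of the 6 in *Srebf2* lie inside the GENCODE gene. The E-box was matched in *Insig1*, from −101 to −96 (−52 to −47), and in 6.02% of all promoters. In the 3 stretches shown no match overlapped another. These are matches of letters in windows; binding was not measured.

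**Figure D1:**
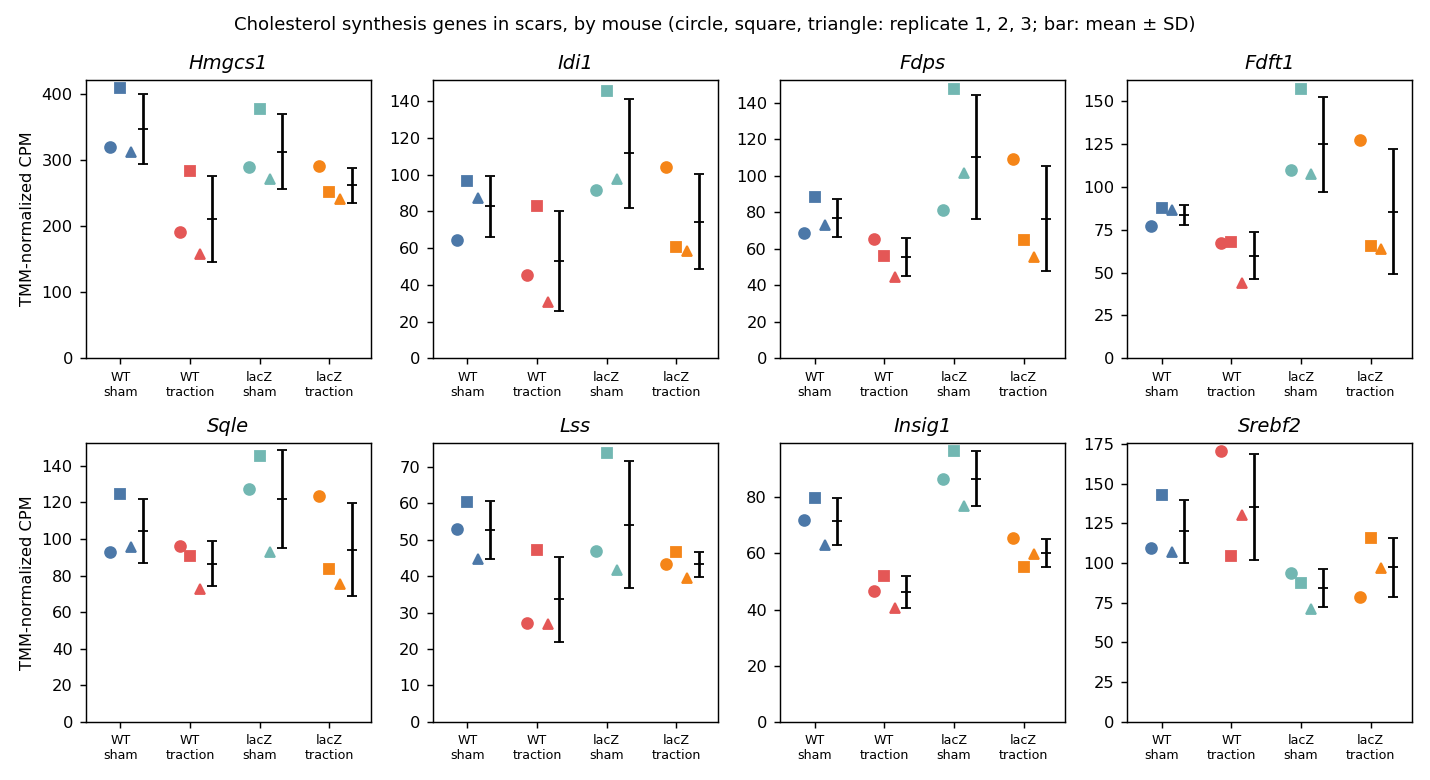
TMM-normalized CPM (vertical axis, from 0) of the 8 genes in the 12 libraries, grouped by genotype and treatment. Circles, squares and triangles are replicates 1, 2 and 3, and the black bar is the mean ± SD of 3 mice. The traction and sham points of *Insig1* do not overlap in either genotype, whereas those of *Idi1*, *Sqle*, *Lss* and *Srebf2* overlap in both.

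*Hmgcs1* (Entrez 208715, chr13:119690379-119708260, plus strand) encodes the cytosolic HMG-CoA synthase, an early enzyme of the mevalonate pathway. In WT mice its level was 319.8, 409 and 312 CPM in the 3 sham libraries and 191, 283 and 158 CPM in the 3 traction libraries. In lacZ mice it was 289, 378 and 271 CPM with sham and 291, 252 and 242 CPM with traction. All 3 WT libraries with traction were below all 3 sham libraries, and the lacZ groups overlapped. The log2 fold change of traction was −0.72 (SE, the standard error, 0.23, adjusted p = 0.0655 from edgeR) in WT mice, just outside the threshold, and −0.26 (SE 0.23, adjusted p = 0.759 from edgeR) in lacZ mice. *Hmgcs1* passed in WT mice under 3 of 13 alternative settings, with DESeq2 (adjusted p = 0.0258), with the replicate block (0.0413) and without replicate 2 of the traction group (0.0210).

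*Idi1* (Entrez 319554, chr13:8885501-8892451, plus strand), the isopentenyl diphosphate isomerase, had 64.2, 96.5 and 87.3 CPM with sham and 45.5, 83.2 and 30.6 CPM with traction in WT mice. The corresponding levels in lacZ mice were 91.7, 146 and 97.6 CPM and 104, 60.4 and 58.7 CPM. One traction library of each genotype lay among the sham libraries, replicate 2 in WT mice and replicate 1 in lacZ mice. *Idi1* varied most of the 8 genes among the WT traction libraries relative to its mean, with 53.1 ± 27.1 CPM (SD, n = 3).

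*Fdps* (Entrez 110196, chr3:89093588-89101959, minus strand) encodes farnesyl diphosphate synthase, at the point where sterols and other isoprenoids part. It had 68.7, 88.5 and 73.2 CPM with sham and 65.5, 56.1 and 44.8 CPM with traction in WT mice, without overlap. In lacZ mice it had 81.0, 147 and 102 CPM with sham and 109, 64.7 and 55.5 CPM with traction, where replicate 1 overlapped the sham libraries. *Fdft1* (Entrez 14137, chr14:63145150-63179578, minus strand), the squalene synthase that commits farnesyl units to sterols, had 76.8, 87.6 and 86.3 CPM with sham and 67.4, 67.9 and 43.9 CPM with traction in WT mice. Its levels in lacZ mice were 109.7, 157 and 107 CPM with sham and 127, 65.6 and 63.6 CPM with traction. *Fdft1* thus showed the same order as *Fdps*, with no overlap in WT mice and with replicate 1 of the lacZ traction group among the sham libraries.

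*Sqle* (Entrez 20775, chr15:59315077-59331192, plus strand) encodes squalene epoxidase, a rate-limiting step after squalene. Its levels were 92.6, 124 and 95.6 CPM with sham and 96.3, 90.7 and 72.7 CPM with traction in WT mice, and 127, 145 and 93.1 CPM with sham and 123, 83.6 and 75.6 CPM with traction in lacZ mice. Both pairs of groups overlapped, and its fold change in WT mice was the nearest to 0 of the 6 enzymes. *Lss* (Entrez 16987, chr10:76531588-76557138, plus strand), the lanosterol synthase that closes the sterol rings, had 52.9, 60.4 and 44.6 CPM with sham and 27.0, 47.2 and 26.8 CPM with traction in WT mice. In lacZ mice it had 46.9, 74.0 and 41.6 CPM with sham and 43.5, 46.6 and 39.6 CPM with traction. *Lss* levels with traction were close together in lacZ mice (43.2 ± 3.49 CPM, SD, n = 3), and replicate 2 of the WT traction group lay among the sham libraries.

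*Insig1*, whose protein retains SREBP in the endoplasmic reticulum, had 71.8, 79.7 and 62.8 CPM with sham and 46.6, 51.8 and 40.4 CPM with traction in WT mice. Its levels in lacZ mice were 86.6, 96.5 and 76.8 CPM with sham and 65.4, 55.1 and 59.9 CPM with traction. In both genotypes every traction library was below every sham library, which held for no other gene of the 8. Over all 18853 genes, 3388 were lower without overlap in WT mice and 1161 in lacZ mice. How many were so in both genotypes was not counted. *Insig1* fell by 35.2% with traction in WT mice, a log2 fold change of −0.63 (SE 0.15, adjusted p = 0.0348 from edgeR). The change was −0.53 (SE 0.15, adjusted p = 0.598 from edgeR, unadjusted p = 0.00427) in lacZ mice. The call in WT mice held under 7 of 13 alternative settings. It was lost without replicate 1 of the sham group (adjusted p = 0.127), replicate 2 of the sham group (0.110), replicate 1 of the traction group (0.0621) or replicate 3 of the traction group (0.0777), with limma-voom (0.0597), and with only the 6 libraries compared (0.0886), while the log2 fold change stayed between −0.74 and −0.52. Over all genes, 0 passed without replicate 1 or 2 of the sham group and with only the 6 libraries compared. Without replicate 1 or 3 of the traction group 360 and 704 passed, and with limma-voom 748, against 1725 in the main fit.

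*Srebf2* (Entrez 20788, chr15:82147181-82205379, plus strand) had 109.7, 143 and 107 CPM with sham and 171, 104 and 130.2 CPM with traction in WT mice, and 94.0, 87.6 and 71.1 CPM with sham and 78.9, 116 and 97.0 CPM with traction in lacZ mice. The groups overlapped in both genotypes. The log2 fold change was 0.17 (SE 0.21, adjusted p = 0.618 from edgeR) and 0.21 (SE 0.21, adjusted p = 0.799 from edgeR). The first turned to −0.05 without replicate 1 of the WT traction group, the library with the high neutrophil markers.

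In WT mice, 7 of the 8 genes had a lower fitted level with traction, and the median log2 fold change of the 8 was −0.56, against −0.01 over all genes tested. The threshold was passed by 1 of 8, where 9.15% of all genes passed in either direction and 3.54% as lower with traction. The unadjusted p was under 0.05 for 3 of 8, *Hmgcs1*, *Lss* and *Insig1*, all lower with traction, against 31.4% of all genes in either direction and 14.7% as lower. The groups did not overlap for 4 of 8, *Hmgcs1*, *Fdps*, *Fdft1* and *Insig1*, again all lower, against 35.7% of all genes in either direction and 18% as lower. No test was made of the difference between these shares. In bulk tissue, fewer cells of a type and less RNA per cell cannot be told apart.

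In lacZ mice the median was −0.45, and the same 7 genes had a lower fitted level, from −0.58 for *Idi1* to −0.26 for *Hmgcs1*. In edgeR 0 of 8 passed, as did 0% of all genes. DESeq2 and limma-voom also called 0 of 8, where over all genes they called 28 of 14727 and 435 of 18853. The unadjusted p was under 0.05 for 1 of 8 (*Insig1*), against 8.12% of all genes, and the groups did not overlap for 1 of 8, against 12.9%. The interaction, which tests whether traction acted differently in the 2 genotypes, was between −0.10 for *Sqle* and 0.46 for *Hmgcs1*. It passed for 0 of 8 genes (0% of all genes) and had an unadjusted p under 0.05 for 0 of 8 (8.91% of all genes). DESeq2 and limma-voom called 0 of 8, where over all genes they called 69 of 18728 and 0 of 18853. The intervals were wide: the 95% interval was −0.24 to 1.16 for *Hmgcs1*, −1.06 to 1.17 for *Idi1* and −0.36 to 0.56 for *Insig1*, so that a difference of the size of the traction effect itself lies inside the first 2.

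**Figure D2:**
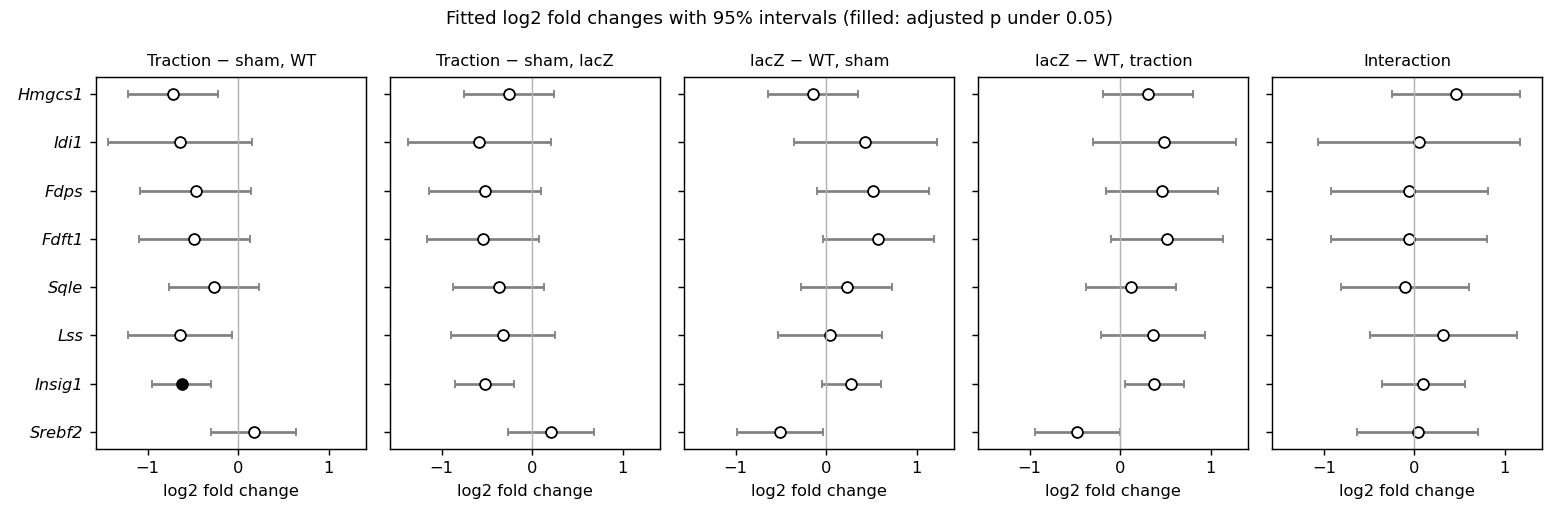
Log2 fold changes (horizontal axis) of the 8 genes in 5 comparisons from edgeR's model, with 95% intervals as bars. A filled point has an adjusted p under 0.05. *Insig1* with traction in WT mice is the only filled point, and *Srebf2* lies on the opposite side of 0 from *Insig1* in the first 4 panels.

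Because the direction was shared by both genotypes, the mean of both traction effects was also tested in the same model, a contrast chosen after the data were seen. *Insig1* was lower with traction by a log2 fold change of −0.58 (SE 0.10, adjusted p = 0.0214 from edgeR), with a lower level in 6 of 6 traction mice than in any sham mouse of the same genotype. The call was lost without replicate 1 (adjusted p = 0.0607) or 2 (0.0559) of the WT sham group, replicate 2 of the lacZ sham group (0.0695), or replicate 2 (0.0632) or 3 (0.0538) of the lacZ traction group. Over all genes 15, 185, 0, 17 and 102 passed without these libraries, in the same order, against 1835 with all libraries. The other 5 genes with an unadjusted p under 0.05 were *Idi1* (−0.61, adjusted p = 0.134 from edgeR), *Fdft1* (−0.51, 0.108), *Fdps* (−0.50, 0.120), *Hmgcs1* (−0.49, 0.0720) and *Lss* (−0.49, 0.106). These are 6 of 8 genes, all lower, against 30.7% of all genes in either direction and 13.5% as lower. One of 8 passed the threshold, against 9.73% of all genes and 3.23% as lower with traction. Without replicate 1 of the lacZ traction group, the library with the high keratinocyte markers, 3 of 8 passed (*Fdps*, *Fdft1* and *Insig1*). Without replicate 2 of the WT traction group 4 of 8 did (*Hmgcs1*, *Idi1*, *Lss* and *Insig1*). Calls rose over all genes as well, to 3422 of 19403 and 2738 of 19400 in these fits, from 1835 of 18853 with all libraries.

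Markers of sebocytes had lower levels with traction, as the enzymes did. The summed level of 8 sebocyte markers was 503 to 636 CPM with sham and 211 to 465 CPM with traction in WT mice, and 567 to 814 CPM with sham and 442 to 560.2 CPM with traction in lacZ mice, so that the groups did not overlap in either genotype. All 8 were lower with traction in both genotypes (median log2 fold changes of −1.34 and −0.76), and 3 of 8 passed the threshold in WT mice and 0 of 8 in lacZ mice, where 4 had an unadjusted p under 0.05. None of the 8 was at 0 in all libraries of a group. Keratinocyte markers, by contrast, passed for 0 of 8 in either genotype (1 and 0 with an unadjusted p under 0.05), with medians of 0.10 and 0.10. Adipocyte markers were lower with traction for 8 of 8 in both genotypes, with medians of −1.53 and −1.24. They passed for 0 of 8 in both, with none at an unadjusted p under 0.05. Of the endothelial markers 6 of 8 passed as higher with traction in WT mice, and of the neutrophil markers 4 of the 7 tested. The fibroblast markers passed for 1 of 8 as higher, with a median of 0.80 and 4 at an unadjusted p under 0.05. Macrophage and skeletal muscle markers passed for 0 of 8, with medians of 0.43 and −2.83 and with 2 and 8 at an unadjusted p under 0.05. The part of these cells in the levels of the 8 genes was not tested.

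Between the genotypes in the sham groups, *Fdft1* and *Srebf2* had no overlap, in opposite directions. The 3 *Fdft1* levels of lacZ mice were all above those of WT mice, with a log2 fold change of 0.58 (SE 0.28, adjusted p = 0.442 from edgeR), and the 3 *Srebf2* levels were all below (−0.51, SE 0.21, adjusted p = 0.416 from edgeR, unadjusted p = 0.0368). These are 2 of 8 genes without overlap, against 26.8% of all genes. In edgeR 0 of 8 passed (0.0106% of all genes) and 1 of 8 (*Srebf2*) had an unadjusted p under 0.05 (11.7% of all genes). DESeq2 and limma-voom called 0 of 8, where over all genes they called 43 of 14007 and 1 of 18853. The sebocyte markers had a median of 0.71 in the same comparison, 6 higher and 2 lower, with 0 of 8 past the threshold and 2 at an unadjusted p under 0.05. Adipocyte markers were higher for 8 of 8 (median 0.97) and skeletal muscle markers lower for 8 of 8 (median −1.31). Of these, 0 passed the threshold, and 0 and 1 had an unadjusted p under 0.05. The medians of the other marker lists were between −0.26 (macrophage) and 0.26 (keratinocyte).

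Between the genotypes with traction, *Insig1* was 60.1 ± 5.12 CPM in lacZ mice (SD, n = 3) and 46.3 ± 5.71 CPM in WT mice (SD, n = 3), without overlap. The log2 fold change was 0.38 (SE 0.15, adjusted p = 0.146 from edgeR, unadjusted p = 0.0263), which did not pass. *Srebf2* was 97.3 ± 18.5 and 135 ± 33.4 CPM (SD, n = 3 each), a log2 fold change of −0.47 (SE 0.21, adjusted p = 0.190 from edgeR, unadjusted p = 0.0494). The other 6 genes were between 0.12 and 0.52. In edgeR 0 of 8 passed (0.106% of all genes), 2 of 8 had an unadjusted p under 0.05 (26.1% of all genes) and 1 of 8 had no overlap (26.6% of all genes). DESeq2 and limma-voom called 0 of 8, where over all genes they called 2334 of 17632 and 16 of 18853. The sebocyte markers were higher in lacZ mice for 8 of 8 here (median 0.91), with 0 past the threshold and 4 at an unadjusted p under 0.05. Adipocyte and skeletal muscle markers were also higher for 8 of 8 (medians 1.21 and 1.16), with 0 past the threshold and 0 and 1 at an unadjusted p under 0.05. The neutrophil, fibroblast and endothelial markers had medians of −2.68, −0.80 and −0.68, each with 0 past the threshold and 5 at an unadjusted p under 0.05. Keratinocyte and macrophage markers had medians of 0.22 and −0.26, with 0 past the threshold. This comparison and that of traction in WT mice use the same 3 traction libraries.

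**Figure D3:**
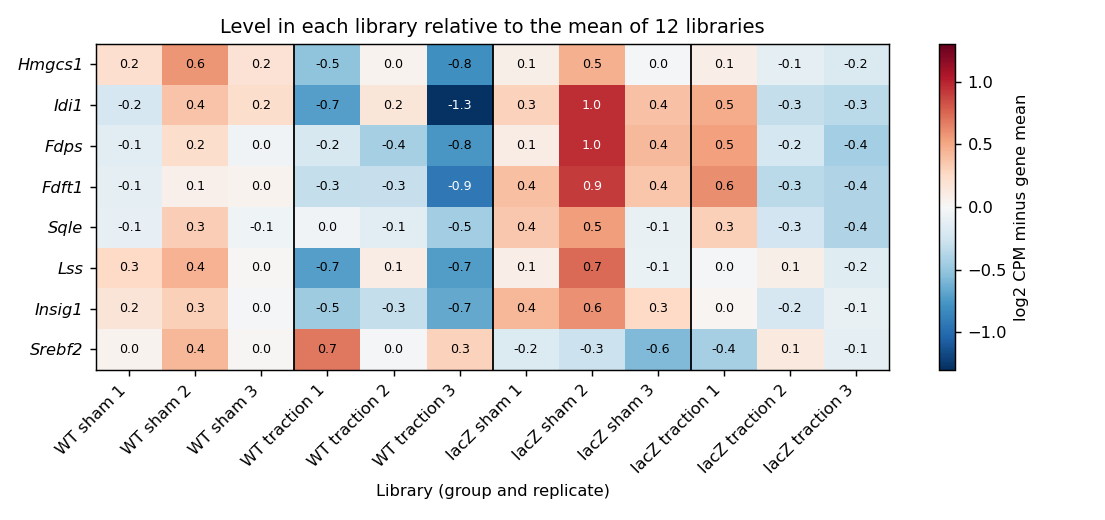
Log2 CPM of each gene (rows) in each of the 12 libraries (columns, by group and replicate) minus the gene's mean over all 12. Red is above and blue below the mean. *Idi1*, *Fdps*, *Fdft1*, *Sqle*, *Lss* and *Insig1* are highest in replicate 2 of the lacZ sham group, and all genes but *Srebf2* are lowest in replicate 3 of the WT traction group.

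The 7 genes other than *Srebf2* varied together from library to library. Over the 12 libraries Pearson's r between the 21 pairs of these 7 genes was 0.66 to 0.96, with a median of 0.83, and after the group means were taken out it was 0.43 to 0.91, with a median of 0.72. The 7 pairs with *Srebf2* had r from −0.62 to −0.24 (median −0.53), and −0.37 to 0.16 within groups. The points share each library's depth and cell mixture. The mean of the standardized levels of the 8 genes was highest in replicate 2 of the lacZ sham group (1.37 SD above the mean) and lowest in replicate 3 of the WT traction group (−1.47).

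Of all other genes, *Nop14* (r = 0.96), *Bspry* (0.95), *Nsdhl* (0.95), *Ppid* (0.95) and *Tmprss2* (0.94) followed that mean most closely over the 12 libraries, with Spearman's rho of 0.88, 0.96, 0.95, 0.94 and 0.91. Without the 2 libraries farthest from the median of the score, r was 0.91, 0.94, 0.86, 0.89 and 0.84. *Nsdhl*, which removes a carbon from the sterol ring system, is a listed enzyme of the pathway, and *Cyp51* (r = 0.94) ranked 8 among the non-members.

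Relative to exon length, *Hmgcs1* had the highest level of the 8 genes in 12 of 12 libraries (median 62.3 CPM per kilobase of annotated exon) and *Lss* the lowest in 12 of 12 (4.23). *Idi1* (24.3), *Insig1* (20.7), *Fdft1* (19.3), *Sqle* (17.0), *Fdps* (16.9) and *Srebf2* (14.7) lay between them. In this middle group each gene was above the next one in 6 to 8 of 12 libraries, so their order was not set apart from the spread.

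The rest of the pathway was described with 15 other genes of cholesterol synthesis. With the 6 enzymes among the 8 genes these make 21, of which *Ggps1* lies on a side branch. In WT mice 19 of 21 had a lower fitted level with traction (median log2 fold change −0.38). An unadjusted p under 0.05 was found for 5, all lower, against 31.4% of all genes in either direction and 14.7% as lower. In edgeR 0 passed, against 9.15% of all genes. The nearest was *Msmo1*, a demethylase of lanosterol products, at −0.91 (SE 0.26, adjusted p = 0.0530 from edgeR). In lacZ mice 19 of 21 were also lower (median −0.28), with 3 at an unadjusted p under 0.05 (8.12% of all genes) and 0 past the threshold (0% of all genes). In the mean of both traction effects 2 of 21 passed, *Msmo1* (−0.79, adjusted p = 0.0327 from edgeR) and *Acat2*, the cytosolic thiolase of the first step (−0.51, adjusted p = 0.0409). Over all genes 9.73% passed, and 3.23% as lower. An unadjusted p under 0.05 was found for 11 of 21, all lower, against 30.7% of all genes in either direction and 13.5% as lower. *Msmo1* held under 9 and *Acat2* under 7 of 18 alternative settings.

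**Figure D4:**
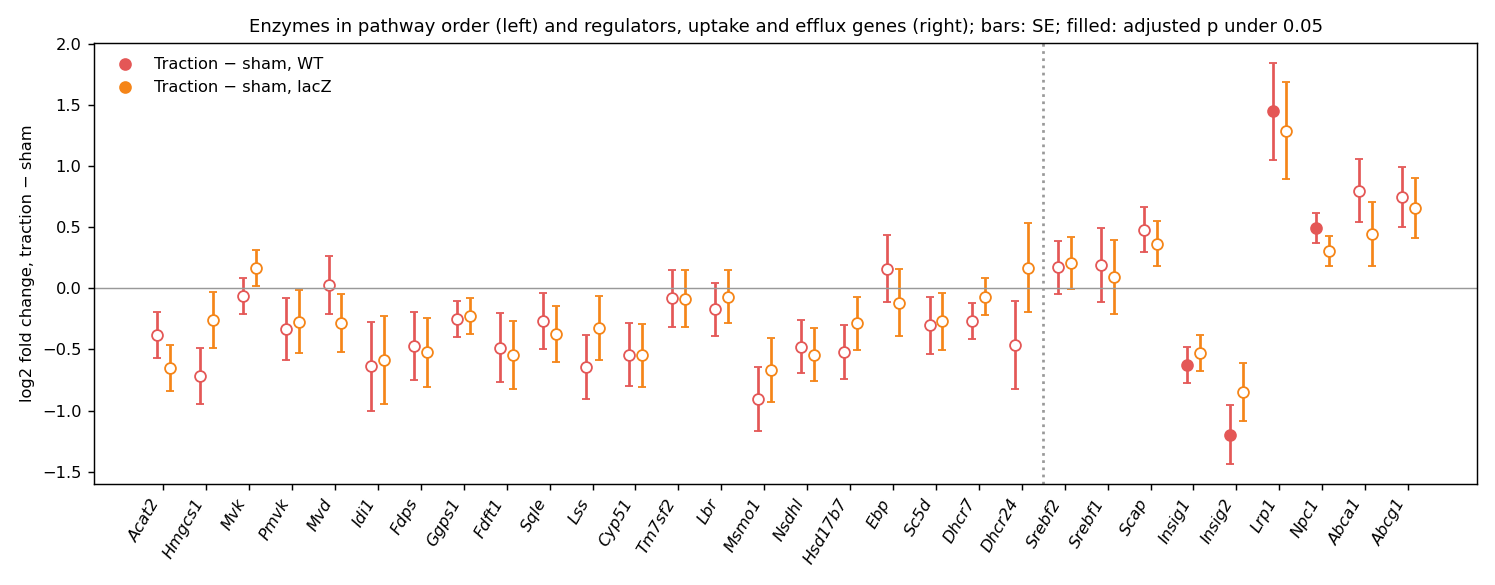
Log2 fold change of traction against sham (vertical axis) in WT (red) and lacZ mice (orange) for the 21 enzymes in pathway order, left of the dotted line, and for 9 genes of regulation, uptake and efflux, right of it. Bars are standard errors and filled points have an adjusted p under 0.05. In each genotype 19 of the 21 enzymes lie below 0, *Insig1* and *Insig2* lie below 0, and *Lrp1* lies above 0.

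Of 8 listed genes that control SREBP, 1 passed as lower and 0 as higher with traction in WT mice. Over all 18853 genes 668 passed as lower and 1057 as higher there. *Insig2*, the second Insig gene, was 154, 110.3 and 103 CPM with sham and 41.7, 66.7 and 52.0 CPM with traction there, and 174, 208 and 141 CPM with sham and 120.4, 85.7 and 84.6 CPM with traction in lacZ mice. The groups did not overlap in either genotype. *Insig2* fell with traction in WT mice (log2 fold change −1.20, SE 0.24, adjusted p = 0.0285 from edgeR) and was −0.85 (adjusted p = 0.598) in lacZ mice. The first call held under 9 of 13 alternative settings.

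Of 10 listed genes of uptake and transport, 9 had a higher fitted level with traction in WT mice. Of these, 2 passed the threshold, where 1057 of all 18853 genes passed as higher, and none of the 10 passed as lower. *Lrp1*, a large endocytic receptor, rose by 1.45 (SE 0.40, adjusted p = 0.0468 from edgeR), and *Npc1*, which exports cholesterol from lysosomes, by 0.50 (SE 0.12, adjusted p = 0.0383), both in WT mice. *Npc1* held under 5 and *Lrp1* under 3 of 13 alternative settings, each with the same sign in all.

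Of 12 genes of efflux, oxysterols and storage, 2 passed as higher in WT mice, where 1057 of all 18853 genes did. *Cyp7b1*, which hydroxylates oxysterols, was 8.68, 6.41 and 5.63 CPM with sham and 76.5, 26.5 and 12.04 CPM with traction (2.47, SE 0.62, adjusted p = 0.0386 from edgeR), and the highest value was in replicate 1, the library with the high neutrophil markers. Without that library its change was 1.47 (adjusted p = 0.0889). The call held under 6 of 13 alternative settings, and was also lost without the filter on low counts (adjusted p = 0.0676), with limma-voom (0.0561), with only the groups compared (0.0989) and without replicate 1 (0.127), 2 (0.107) or 3 (0.0831) of the sham group. *Ch25h*, the cholesterol 25-hydroxylase, was low, at 0.391 to 0.753 CPM with sham and 1.06 to 2.69 CPM with traction (1.70, adjusted p = 0.0475 from edgeR), and held under 3 of 13 alternative settings. Of 13 genes of fatty acid synthesis, 11 had a lower fitted level with traction in WT mice (median −0.68) and 10 in lacZ mice (median −0.60). In WT mice 0 passed in edgeR and 3 had an unadjusted p under 0.05, 2 lower and 1 higher, against 31.4% of all genes.

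No listed pathway gene passed in lacZ mice, between the genotypes or for the interaction in edgeR. For the mean of both traction effects, *Insig2* (−1.02, adjusted p = 0.0203 from edgeR), *Lrp1* (1.37, adjusted p = 0.0253) and *Npc1* (0.40, adjusted p = 0.0278) passed again. *Abcg1*, a cholesterol exporter (0.70, adjusted p = 0.0369), *Cyp27a1*, the sterol 27-hydroxylase (−0.96, adjusted p = 0.0487), and *Acss2*, which makes acetyl-CoA from acetate (−0.91, adjusted p = 0.0360), passed as well. Of 18 alternative settings, *Insig2* held under 14, *Lrp1* and *Npc1* under 12, *Abcg1* under 10, *Acss2* under 8 and *Cyp27a1* under 4.

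Exons of 5 of the 8 genes overlap another annotated gene. *Fdft1* shares 774 bases with *Ctsb*, a lysosomal protease gene on the opposite strand, *Fdps* 1124 bases with *Gm43738* on the same strand, and *Hmgcs1*, *Lss* and *Idi1* 557, 381 and 323 bases with genes on the opposite strand. The strand setting of the counting was not given in the sources used here, so the reads of such partners cannot be told apart.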

How the data were processed

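RNA of 12 mouse scars was sequenced from stranded poly(A) libraries. The authors trimmed the reads with fastp 0.20.0, aligned them to GRCm38 with HISAT2 2.1.0, counted reads per gene with featureCounts 2.0.0 and deposited the raw counts without normalization. The annotation, the strand setting and the treatment of reads with several alignments are not given in the sources used here. Samples were grouped by their labels.

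Here the 12 tables were joined by symbol, filtered for low counts by group (filterByExpr), scaled by TMM and analysed by the two-sided robust quasi-likelihood test of edgeR 4.0.16 (limma 3.58.1, R 4.3.3), in 1 model of 4 groups with 8 residual degrees of freedom. The biological coefficient of variation was 34.2%. Log2 CPM used a prior count of 2. No 2 libraries of a group were copies. The labels number the mice within a group and do not say that same-numbered mice of different groups are related.

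The members and lists were chosen with earlier results of these data known, and the mean of both traction effects was added after the data were seen. Genes named were the 8 members, listed pathway genes past the threshold (at most 10 a comparison), *Cd248* and the 5 genes most like the members; some genes of the pathway are not reported here. *Msmo1* was also named for its value in *Tem1*WT/WT mice and *Cyp51* for its rank, both after their values were seen. Positions and exon lengths came from GENCODE vM21 (GRCm38) and promoters from RefSeq. The alternatives were RLE or upper quartile normalization, no filter on low counts, DESeq2 1.42.0, limma-voom with sample weights, a block for the replicate number, a fit to only the groups compared, and leaving out each library. The test was first tested on simulated data.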

Additional observations from a re-analysis of the deposited data

How the results depend on the processing

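In *Tem1*WT/WT mice 1 of the 8 genes passed with traction. The number was 2 with DESeq2, 0 with limma-voom, 3 with the replicate block and 0 with only the groups compared, and 0 to 3 when single libraries were left out (0 without replicate 1 or 2 of the sham group or replicate 1 or 3 of the traction group, 3 without replicate 2 of the traction group). Over all genes 1725 passed there, against 4047 with DESeq2, 748 with limma-voom and 1467 with the replicate block. With only the groups compared, and without replicate 1 or 2 of the sham group, 0 of all genes passed. Without replicate 1, 2 or 3 of the traction group 360, 2861 and 704 did. For the mean of both traction effects, where 1 of the 8 passed, the number was 2 with DESeq2, 3 with limma-voom, 3 with the replicate block and 0 to 4 without single libraries. Over all genes 1835 passed for this mean, against 3850 with DESeq2, 3881 with limma-voom, 1492 with the replicate block and 0 to 3422 without single libraries. In the other 4 comparisons 0 of the 8 passed under any alternative. Same-numbered libraries did not deviate together in every pair of groups (r from −0.32 to 0.25), so the numbers were not taken as pairs. Of the 6 libraries in a pair of groups, each compared with the 3 of the other group, 2 to 6 correlated best with their own number. It was 6 for WT sham with lacZ sham, 5 for WT sham with lacZ traction, 2 for lacZ sham with lacZ traction, and 4 otherwise. Whether same-numbered libraries share a batch was not tested.

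The sign of the log2 fold change held for all 8 genes under every alternative for traction in *Tem1*lacZ/lacZ mice (104 of 104 values) and for the mean of both traction effects. It turned with limma-voom for *Srebf2* with traction in *Tem1*WT/WT mice (−0.00366), for *Lss* between the sham groups (−0.12), for *Sqle* between the traction groups (−0.076) and for the interaction of *Idi1* (−0.20), and with upper quartile normalization for the interaction of *Fdps* (0.024) and *Fdft1* (0.021). Without single libraries the ranges that crossed 0 were −0.052 to 0.339 for *Srebf2* with traction in *Tem1*WT/WT mice, −0.320 to 0.0132 for *Hmgcs1* and −0.26 to 0.18 for *Lss* between the sham groups, and −0.0869 to 0.258 for *Sqle* between the traction groups. For the interaction they were −0.296 to 0.0698 for *Sqle*, −0.22 to 0.52 for *Idi1*, −0.35 to 0.24 for *Fdps*, −0.41 to 0.16 for *Fdft1*, −0.13 to 0.29 for *Srebf2* and −0.0096 to 0.22 for *Insig1*. The cause of these changes was not tested. Upper quartile normalization moved the median of all genes to −0.12 for the traction effect in *Tem1*WT/WT mice, and to 0.14 between the genotypes with traction. Over all genes, 1725 passed in the first of these comparisons, against 4047 with DESeq2, 748 with limma-voom, 1011 without the filter, 0 with only the groups compared and 0 to 2861 without single libraries, and the share of these that were higher was 1057 of 1725, 734 of 1673 with upper quartile normalization, 792 of 1467 with the replicate block and 621 of 748 with limma-voom. Each of the 8 genes had 1136 or more counts in every library, so counting error was small beside the spread between mice.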
